A study of Gallus gallus with 6 samples.

Results

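The genes described are fibronectin (FN1), 4 laminin chains (LAMB1, LAMA1, LAMA2 and LAMC1), the nidogens NID1 and NID2, the proteoglycans perlecan (HSPG2) and agrin (AGRN), and reelin (RELN). They were chosen by gene name as components of the extracellular matrix, with earlier results of these arrays in view in which the values of FN1, LAMB1 and RELN were lower after gentamicin than in control. Of the 13009 named genes on the arrays 10 belong to the group, and of the 38382 probe sets that are not array controls 37 carry the symbol of a member. Because the differences from control were in view, they are given for these genes as a description without a test.

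The basilar papilla (BP) is the hearing organ of birds, and its basal part was dissected from wild type chicks of 12 to 16 days of age. Gentamicin, an antibiotic toxic to the hair cells (HCs) of the ear, was injected at 0 hr, and BPs were taken 48 hrs or 72 hrs later, while age-matched chicks left untreated served as control. RNA was pooled over several BPs for each array, and each of the 3 groups held 2 arrays, so that p-values measure the spread between pools. The array titles number the replicates 1 and 2 and are followed here, although another label field gives number 2 to both control arrays and to both 48 hr arrays.

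A basement membrane is a thin sheet of matrix on which an epithelium rests. Laminins, each built of an alpha, a beta and a gamma chain, polymerise into its first network, collagen IV forms a second one, and nidogens and perlecan tie them together. Fibronectin assembles into fibrils in connective tissue and below epithelia and is bound by integrins. Agrin binds laminin and dystroglycan and is best known for organising the neuromuscular junction, and reelin is a secreted matrix glycoprotein that positions migrating neurons in the developing brain through VLDLR and LRP8. In the BP the basement membrane separates the sensory epithelium, HCs and supporting cells (SCs) above, from the connective tissue, vessels and nerve fibres below.

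Values are log2 intensities as deposited, and a level is set only against the same probe set on another array. The median intensity per array lay between 26.5 and 30.1, and 51.7 to 54.4% of probe sets were under an intensity of 32 (5 on the log2 scale), where differences are imprecise. Of the 37 probe sets of the members 12 were over 32 on all 6 arrays, 17 were under it on all 6 and 8 were mixed. The gap between the 3′ and the 5′ probe sets of GAPDH, one sign of RNA integrity, was 2.46 and 3.31 on control replicates 1 and 2. In the same order it was 3.003 and 4.97 at 48 hrs and 2.05 and 4.58 at 72 hrs. Replicate 2 thus had the larger gap in each group, and the part of this gap in the results was not tested. Markers of HCs, of which 11 of 15 were measured, summed to an intensity of 5072 and 5151 on the control arrays, 4077 and 4148 at 48 hrs and 4349 and 4679 at 72 hrs. The sum is weighted to the brightest genes, and by gene the median log2 difference of these markers was -0.05 at 48 hrs, with 2 of 11 lower (CHRNA9 and TMC1), and 0.08 at 72 hrs, with 1 lower and 1 higher, while MYO7A and MYO6 were at 0.06 and 0.24 at 48 hrs. All 12 SC markers were measured, and they summed to between 36959 and 41251 on the 6 arrays, a sum weighted in the same way. By gene their median log2 difference was -0.12 at 48 hrs, with 2 of 12 lower and 0 higher. At 72 hrs it was 0.07, with 1 lower and 1 higher. In pooled tissue, fewer cells of a type and less RNA per cell cannot be told apart.

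By the fold rule, a mean log2 difference over 0.6 in either direction, 4 of the 10 genes were lower at 48 hrs (FN1, LAMB1, RELN and NID2), against 5.29% of all genes, and 0 were higher, against 6.82%. At 72 hrs 4 were lower (FN1, LAMB1, RELN and NID1), against 6.26% of all genes, and 0 were higher, against 9.28%. The median log2 difference of the members was -0.25 at 48 hrs and -0.28 at 72 hrs, where that of all genes was 0.01 at both times. The member median at 48 hrs was -0.05 where values under 32 were set to 32. FN1, LAMB1 and RELN were the 3 members with all 4 treated arrays below both controls, an order seen in 5.1% of all genes. Among the 5748 genes with a mean log2 intensity over 7, to which 6 members belong, 3 of these 6 were lower at each time, against 1.25% at 48 hrs and 1.91% at 72 hrs. Of those 5748 genes 6.25% had all 4 treated arrays below both controls, and 0.435% also passed the fold rule at both times. Since the members were picked with these differences known, nothing is read from the counts beside the background. Where all probe sets of a gene were averaged, dim ones included, FN1, LAMB1 and RELN fell short of the rule at both times, with -0.44, -0.23 and -0.57 at 48 hrs and -0.30, -0.28 and -0.58 at 72 hrs. At 48 hrs the lower member nearest to the rule was LAMB1 at -0.67, and the next in order, LAMA1 at -0.33, was well short of it. At 72 hrs these were RELN, inside at -0.73, and LAMA2, outside at -0.53.

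**Figure D1:**
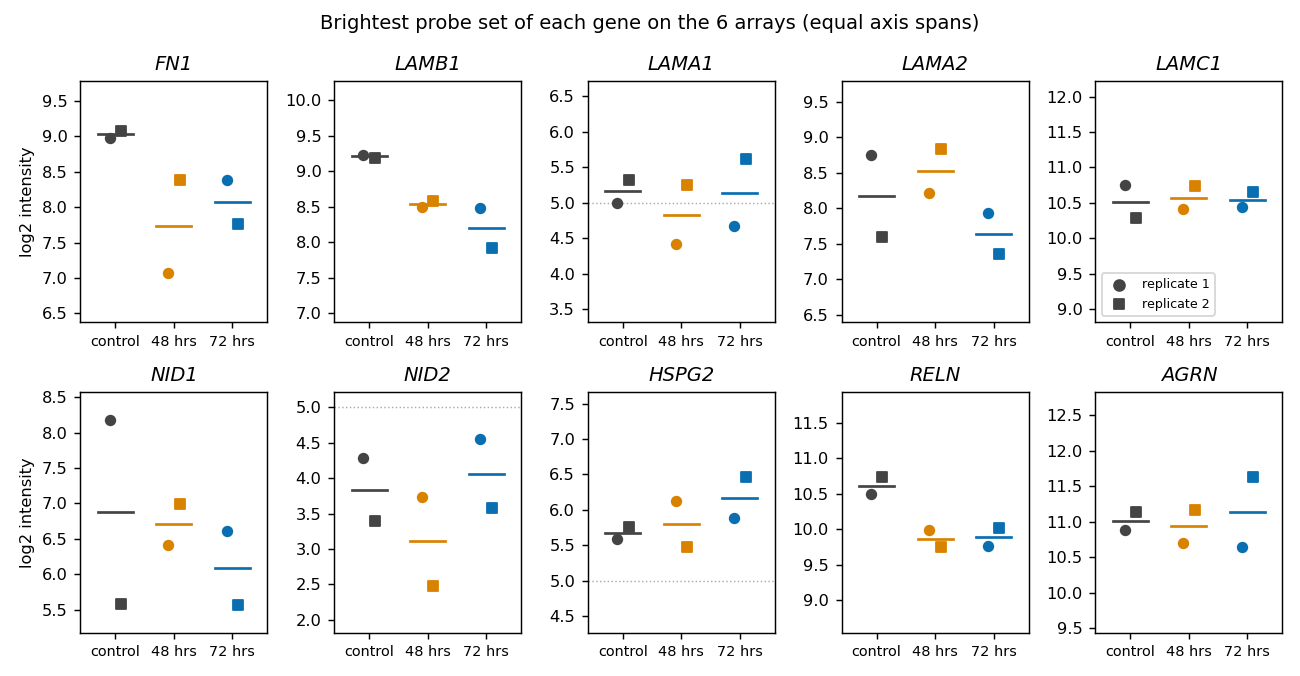
Log2 intensity of the brightest probe set of each of the 10 genes on each of the 6 arrays (x axis, group; circles, replicate 1; squares, replicate 2; bars, group means of 2 arrays; dotted line, intensity 32). For FN1, LAMB1 and RELN the 4 treated arrays lie below both controls, while for NID1 the control arrays alone span 5.59 to 8.18.

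Limma across the 38382 probe sets called none at 48 hrs (0%; 1039 had an unadjusted p under 0.05), 34 at 72 hrs (0.0886%; 1401) and 19 between 72 hrs and 48 hrs (0.0495%; 1286), with Benjamini-Hochberg adjustment at 0.05. None of the 37 probe sets of the members was among those called. Since the members were picked with the differences from control in view, nothing is read from this for those differences.

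FN1 encodes fibronectin and was lower on every treated array. Its brightest probe set read 8.97 and 9.08 on the control arrays, 7.08 and 8.39 at 48 hrs, and 8.38 and 7.76 at 72 hrs. The controls lay close together and every treated array was below them, but the 48 hr arrays differed from each other by as much as they differed from control. The mean of 2 arrays with its SD was 9.02 ± 0.08 in control, 7.73 ± 0.93 at 48 hrs and 8.07 ± 0.44 at 72 hrs. The log2 difference from control was -1.29 at 48 hrs, or 0.408 times the control level, with -2.00 and -0.58 for the most and the least different pair of arrays. At 72 hrs it was -0.96, or 0.515 times control, with pairs from -1.32 to -0.59. Without 48 hr replicate 1 the difference at 48 hrs was -0.64, and without replicate 2 it was -1.95.

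FN1 is represented by 8 probe sets, and the other 3 that rose above 32 had the same order of arrays at 48 hrs, replicate 1 being the lowest of the 6. The second read 8.71 and 8.81 in control, 6.98 and 8.21 at 48 hrs, and 8.14 and 7.89 at 72 hrs. The third read 7.91 and 8.32 in control, 6.11 and 7.69 at 48 hrs, and 7.47 and 7.21 at 72 hrs. In both, all treated arrays were again below both controls, with log2 differences of -1.16 and -1.22 at 48 hrs and -0.75 and -0.78 at 72 hrs. The fourth, whose probes like those of the third may match other sequences by their design suffix, read 5.85 and 6.48 in control, 4.60 and 6.04 at 48 hrs, and 5.54 and 5.33 at 72 hrs. Its difference was -0.85 at 48 hrs, where the second 48 hr array lay between the controls, and -0.73 at 72 hrs, where the groups did not overlap. The remaining 4 FN1 probe sets were under 32 on all 6 arrays, with differences between -0.78 and 1.59 at 48 hrs. The probe sets measure the same RNA pools and are not replicates of each other.

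**Figure D2:**
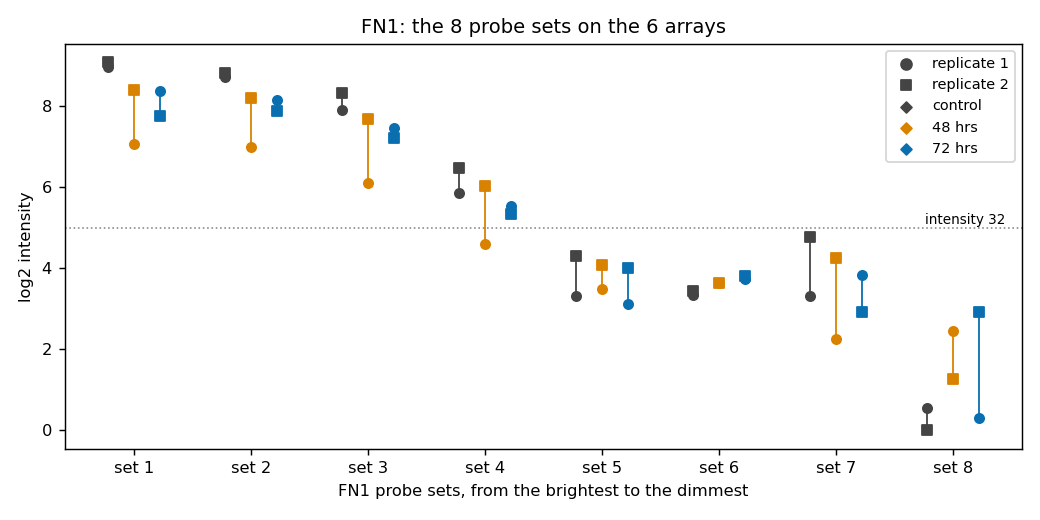
Log2 intensity (y axis) of the 8 FN1 probe sets, ordered from the brightest to the dimmest on the x axis, on the 6 arrays (circles, replicate 1; squares, replicate 2; colours, groups; vertical lines join the 2 arrays of a group; dotted line, intensity 32). The 4 brightest share a low value on 48 hr replicate 1, which reads 7.08 in the brightest, and the other 4 lie below the intensity of 32.

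LAMB1, the beta 1 chain found in many laminins, differed by a similar amount from each control array at 48 hrs. Its bright probe set read 9.23 and 9.19 in control, 8.50 and 8.58 at 48 hrs, and 8.48 and 7.91 at 72 hrs. The arrays of a group were nearly alike in control and at 48 hrs, and the 72 hr arrays were further apart. The log2 difference was -0.67 at 48 hrs (0.627 times control, pairs from -0.73 to -0.62) and -1.02 at 72 hrs (0.494 times control, pairs from -1.32 to -0.71). The SD over 2 arrays was 0.03 in control, 0.05 at 48 hrs and 0.40 at 72 hrs. A second LAMB1 probe set was under 32 on all arrays, and its differences were 0.21 and 0.46.

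LAMC1, the gamma 1 chain that joins LAMB1 in the common laminin trimers, did not share this pattern. Its brightest probe set read 10.75 and 10.29 in control, 10.42 and 10.73 at 48 hrs, and 10.44 and 10.65 at 72 hrs. All treated arrays lay between the controls, and the log2 differences were 0.06 at 48 hrs and 0.03 at 72 hrs. A second LAMC1 probe set read 7.39 and 6.94 in control, 6.75 and 7.19 at 48 hrs, and 7.53 and 7.78 at 72 hrs. Here the 72 hr arrays were above all others, with a difference from control of -0.19 at 48 hrs and 0.49 at 72 hrs, so that the probe sets of LAMC1 gave different answers at 72 hrs. The third, under 32 on all arrays, differed by 0.37 and 1.04.

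LAMA1, the alpha 1 chain of early basement membranes, was dim, and its brightest probe set read 4.995 and 5.32 in control, 4.42 and 5.25 at 48 hrs, and 4.67 and 5.61 at 72 hrs. The groups overlapped and the differences were -0.33 and -0.02. LAMA2, the alpha 2 chain known from muscle and from the Schwann cells around nerve fibres, read 8.76 and 7.60 in control, 8.21 and 8.84 at 48 hrs, and 7.94 and 7.35 at 72 hrs in its brightest probe set. The control arrays differed by more than 1 on the log2 scale, and the differences of 0.35 at 48 hrs and -0.53 at 72 hrs were within the control spread. The other 4 probe sets of LAMA1 and the other 4 of LAMA2 were each over 32 on at most 3 arrays, and their differences lay between -0.78 and 0.97.

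RELN was lower on all treated arrays by a nearly equal amount at both times. Its bright probe set read 10.50 and 10.73 in control, 9.98 and 9.75 at 48 hrs, and 9.76 and 10.01 at 72 hrs. The arrays of each group were close together, and the groups of treated arrays did not overlap with control. The log2 difference was -0.75 at 48 hrs (0.596 times control, pairs from -0.98 to -0.51) and -0.73 at 72 hrs (0.604 times control, pairs from -0.97 to -0.48), with SDs over 2 arrays of 0.17 in control and at 48 hrs and 0.18 at 72 hrs. The second RELN probe set read 5.61 and 5.19 in control, 5.34 and 4.67 at 48 hrs, and 5.28 and 4.64 at 72 hrs. Its differences were -0.40 and -0.44, and 1 treated array of each time lay between the controls.

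AGRN was bright and its group means were close, but its 72 hr arrays disagreed. Its brightest probe set read 10.88 and 11.13 in control, 10.70 and 11.17 at 48 hrs, and 10.64 and 11.63 at 72 hrs, with overlapping groups and differences of -0.07 and 0.13. Without 72 hr replicate 1 the difference at 72 hrs was 0.62, and without replicate 2 it was -0.37. A dimmer AGRN probe set read 4.22 and 4.31 in control, 4.42 and 4.87 at 48 hrs, and 4.79 and 5.11 at 72 hrs. All treated arrays were above control there, by 0.38 and 0.68, but 5 of the 6 arrays were under 32.

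HSPG2, the heparan sulfate proteoglycan perlecan, was dim but above 32 on all arrays in 2 of its 4 probe sets. The brightest read 5.58 and 5.76 in control, 6.12 and 5.47 at 48 hrs, and 5.88 and 6.46 at 72 hrs. The 72 hr arrays were both above control and the 48 hr arrays were on either side of it. The differences were 0.13 at 48 hrs and 0.50 at 72 hrs. The other of these 2 probe sets differed by 0.05 at 48 hrs and 0.12 at 72 hrs, with overlapping groups.

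NID1 and NID2 link laminin to collagen IV. The brightest NID1 probe set read 8.18 and 5.59 in control, 6.42 and 6.99 at 48 hrs, and 6.61 and 5.57 at 72 hrs. The control arrays spanned nearly the whole range, with an SD of 1.83 over 2 arrays, and the differences of -0.18 and -0.79 rested on control replicate 1. Without that array they were 1.12 at 48 hrs and 0.50 at 72 hrs. The other 3 NID1 probe sets were under 32 on all arrays. Their differences lay between 0.02 and 0.6001 at 48 hrs and between -0.22 and 0.86 at 72 hrs. Among them 1 passed the fold rule as higher at both times, with arrays that overlapped with control. NID2 has 1 probe set, also under 32 on all arrays, which read 4.28 and 3.40 in control, 3.73 and 2.49 at 48 hrs, and 4.55 and 3.57 at 72 hrs. Its groups overlapped, so that the difference of -0.73 at 48 hrs, inside the fold rule, is a value among dim and scattered readings, and at 72 hrs it was 0.22.

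**Figure D3:**
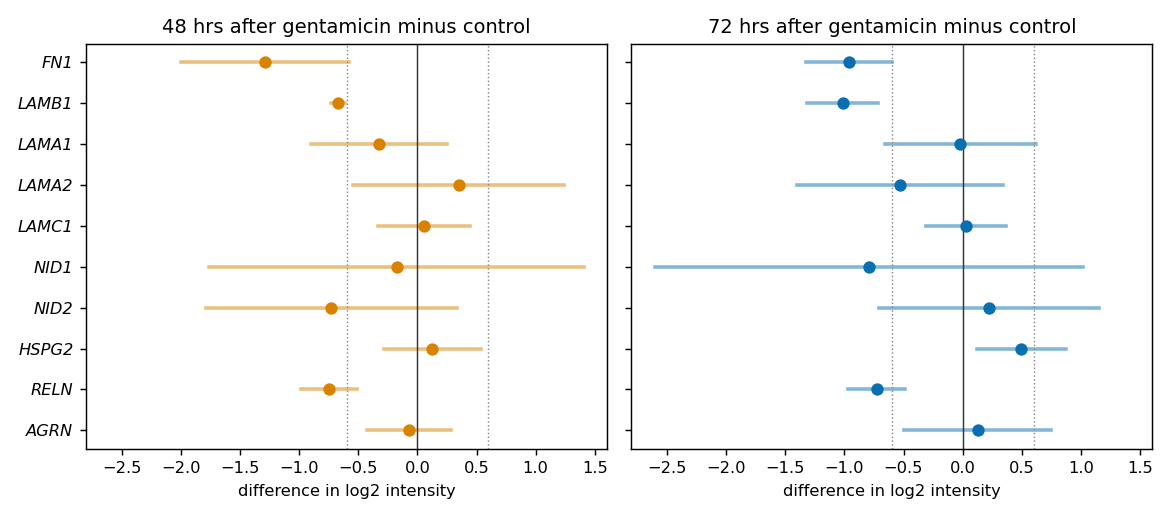
Log2 difference from control of the brightest probe set of each of the 10 genes at 48 hrs and 72 hrs (points, difference of means of 2 arrays; bars, from the lowest to the highest of the 4 pairs of arrays; dotted lines, the fold rule of 0.6). The bars of FN1, LAMB1 and RELN stay below 0 at both times, and that of NID1 crosses 0 with the greatest width.

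The control arrays differed in some connective tissue markers, as they did in NID1. DCN, the fibroblast proteoglycan decorin, read 10.09 and 4.84 in control, 7.11 and 7.78 at 48 hrs, and 6.96 and 5.12 at 72 hrs. LUM (lumican) read 9.04 and 4.20 in control, and COL1A1, a chain of collagen I, read 9.93 and 5.36. The 10 markers of connective tissue fibroblasts, all of them measured and none at the lowest value of the files, summed to 3122 and 561 in control, 837 and 898 at 48 hrs, and 755 and 663 at 72 hrs. These sums are weighted to the brightest genes. The median log2 difference of the 10 markers was -0.14 at 48 hrs, with 1 lower and 0 higher by the fold rule. At 72 hrs it was -0.52, with 5 lower and 0 higher, 1 of the 5 without overlap of the arrays. Of all genes 5.29% were lower at 48 hrs and 6.26% at 72 hrs. By gene, 5 of the 10 markers (DCN, LUM, COL1A1, OGN and TWIST1) were highest on control replicate 1, as NID1 was, and the other 5 were not. COL3A1 read 7.74 and 7.72 in control and COL1A2 6.42 and 6.68, while POSTN and PDGFRA were lowest on that array. LAMA2 was higher on control replicate 1 than on replicate 2, but highest on 48 hr replicate 2. The part of connective tissue in the values of NID1, LAMA2, FN1, LAMB1 and RELN was not tested. On the same control arrays FN1 read 8.97 and 9.08, LAMB1 9.23 and 9.19, and RELN 10.50 and 10.73. The 8 endothelial markers summed to 418 and 100 in control and to between 137 and 196 on the treated arrays, and 5 of the 8 were highest on control replicate 1. Without control replicate 1 the log2 differences at 48 hrs were -1.35 for FN1, -0.65 for LAMB1 and -0.86 for RELN. Those at 72 hrs were -1.01, -0.99 and -0.84 in the same order.

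**Figure D4:**
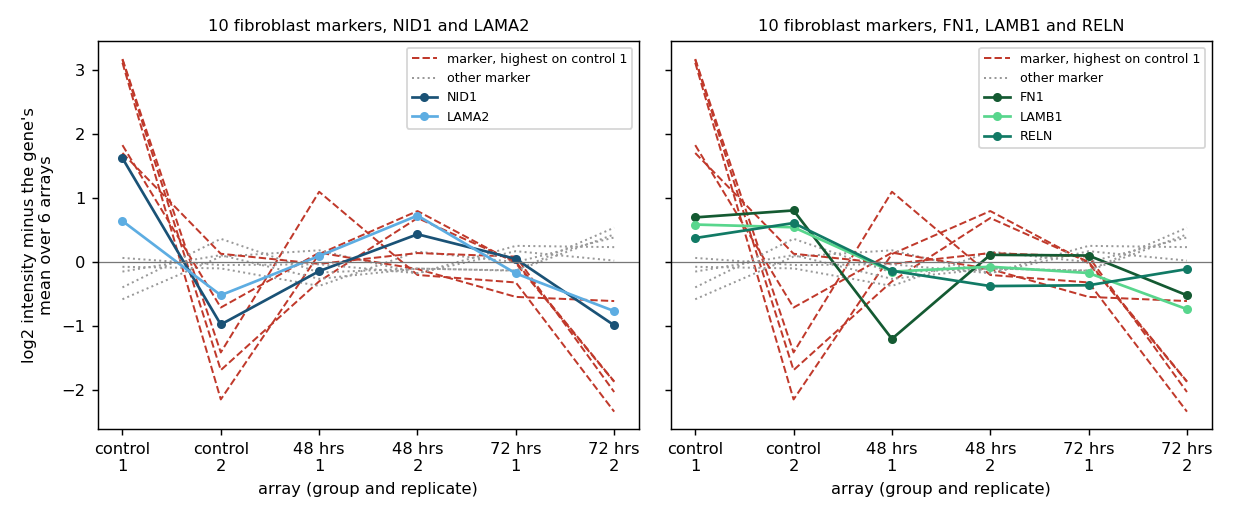
Log2 intensity minus the gene's mean over the 6 arrays (y axis) by array (x axis, group and replicate) for the 10 fibroblast markers (dashed, the 5 that are highest on control replicate 1; dotted, the other 5) beside NID1 and LAMA2 (left) and beside FN1, LAMB1 and RELN (right). Lines only join the values of 1 gene. NID1 and the 5 dashed markers are high on control replicate 1 and lower on control replicate 2, while the dotted markers, FN1, LAMB1 and RELN show no such drop.

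The step from 48 hrs to 72 hrs was not the comparison in which the genes were seen to differ, and it was tested with limma over all probe sets. It shares the treated arrays with the comparisons in view when the genes were picked, so that choice may have shaped its values too. The adjusted p was 1.0 for each of the 37 probe sets of the members. FN1 was 0.33 higher at 72 hrs than at 48 hrs (95% interval -0.64 to 1.31), LAMB1 was at -0.34 (-0.90 to 0.22), and RELN was at 0.02 (-0.44 to 0.48). These intervals leave room for changes of either sign, that of RELN being the narrowest of the 3. The second LAMC1 probe set was at 0.68 (0.02 to 1.35), the 1 probe set among the 37 with an unadjusted p under 0.05, against 3.35% of all probe sets, and LAMA2 was at -0.88 (-1.85 to 0.09). By the fold rule 2 members were lower at 72 hrs than at 48 hrs (LAMA2 and NID1), against 6.94% of all genes, and 1 was higher (NID2), against 7.74%. Both arrays at 72 hrs were below both at 48 hrs in the brightest LAMA2 probe set. The dimmer LAMA2 probe sets were at 0.05, 0.225, -0.16 and -0.46 for this step. The NID1 arrays of the 48 hr and 72 hr groups overlapped, and the NID2 probe set was dim throughout.

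Related genes were described in 6 lists, whose median differences lay between -0.08 and 0.19 at 48 hrs and between -0.14 and 0.30 at 72 hrs, where that of all genes was 0.01. The counts of each list stand beside 5.29% of all genes lower and 6.82% higher at 48 hrs, and 6.26% and 9.28% at 72 hrs. Collagen IV forms the other network of the basement membrane. Of 22 collagen IV chains and other partners 21 were measured, 3 were lower and 0 higher at 48 hrs, and 3 were lower and 1 higher at 72 hrs, with list medians of 0.02 and 0.08. COL4A1, a chain of the ubiquitous collagen IV trimer, read 8.03 and 7.33 in control, 7.07 and 6.93 at 48 hrs, and 7.24 and 6.33 at 72 hrs. All treated arrays were below both controls, with differences of -0.68 and -0.89. Its partner chain COL4A2 read 8.96 and 8.21 in control, 8.11 and 7.51 at 48 hrs, and 8.14 and 8.10 at 72 hrs, again with all treated arrays below control, and differed by -0.77 and -0.46. COL4A4, a chain of a collagen IV with a narrower distribution, read 5.93 and 6.05 in control and 5.47 and 4.67 at 72 hrs, a difference of -0.92, and -0.46 at 48 hrs. Control replicate 1 was the highest array for COL4A1 and COL4A2. It was also the highest for 5 of the 10 fibroblast markers and 5 of the 8 endothelial markers, but not for the other markers of these lists. The part of any cell type in the COL4A1 and COL4A2 values was not tested. Without control replicate 1 COL4A1 was at -0.33 and -0.55 and COL4A2 at -0.40 and -0.09, short of the rule at both times. COL4A4 was then at -0.52 and -0.99, past the rule at 72 hrs. These comparisons were added after the values were seen. The third gene lower at 72 hrs without overlap was NTN4, a netrin of basement membranes, in a dim probe set.

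Of the 8 other laminin chains 7 were measured, of which 2 were lower and 3 higher at 48 hrs and 1 lower and 2 higher at 72 hrs. LAMB2, the beta 2 chain, read 5.26 and 5.55 in control, 5.80 and 6.47 at 48 hrs, and 5.24 and 8.48 at 72 hrs. It was above control on both 48 hr arrays, by 0.73, and at 72 hrs the arrays disagreed. The difference at 48 hrs was 0.58 without control replicate 1 and 0.88 without replicate 2, a comparison added after the values were seen. LAMA5, the alpha 5 chain of most mature epithelial basement membranes, read 8.55 and 8.64 in control, 8.62 and 8.95 at 48 hrs, and 8.46 and 8.51 at 72 hrs. It passed the rule at neither time. LAMA3, LAMB3 and LAMC3 passed the rule without overlap at one time or both, in probe sets with readings under 32.

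Of the 22 receptors of laminin and fibronectin 18 were measured, of which 2 were lower and 1 higher at 48 hrs and 1 lower and 0 higher at 72 hrs. ITGB1, the beta chain shared by most laminin and fibronectin receptors, read 11.26 and 10.71 in control, 10.93 and 10.72 at 48 hrs, and 11.04 and 10.31 at 72 hrs. ITGA6, an alpha chain of laminin receptors, read between 10.02 and 10.44 on the 6 arrays, and neither gene passed the rule. CD44, a receptor for hyaluronan, was higher at 48 hrs by 1.38, with 5.30 and 4.26 in control and 5.97 and 6.35 at 48 hrs. The difference was 1.90 without control replicate 1 and 0.85 without replicate 2, again a comparison added after the values were seen. ITGA9 and ITGB6 were lower at 48 hrs by -0.93 and -1.01, and both were under 32 on each of the 48 hr arrays. At 72 hrs the arrays of CD44, ITGA9 and ITGB6 overlapped with control.

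The 7 genes of reelin and agrin signalling were all measured, and at 48 hrs 0 were lower and 0 higher by the rule. VLDLR, a reelin receptor, read 6.77 and 6.27 in control, 6.97 and 7.13 at 48 hrs, and 6.56 and 6.67 at 72 hrs. It was 0.53 higher at 48 hrs, above both controls on both arrays but short of the rule. RAPSN, which clusters acetylcholine receptors, was the 1 gene lower at 72 hrs, at -1.57 in a dim probe set. Of 19 proteases and inhibitors 16 were measured, with 1 lower and 1 higher at 48 hrs and 1 lower and 2 higher at 72 hrs, and those without overlap (MMP7, MMP13 and HPSE2) were dim. The 16 intracellular linkers were all measured, with 0 lower and 1 higher at 48 hrs and 1 lower and 0 higher at 72 hrs. LIMS1 (PINCH1), an adaptor of integrin-linked kinase, read 10.68 and 9.85 in control and 10.89 and 11.04 at 48 hrs, a difference of 0.70. TLN2, the talin that couples integrins to actin in muscle and brain, was at -0.74 at 72 hrs, with 5.88 and 6.24 in control and 5.06 and 5.58 at 72 hrs. Without control replicate 1 LIMS1 was at 1.12 and TLN2 at -0.92, and without replicate 2 they were at 0.28 and -0.56. These comparisons too were added after the values were seen.

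**Figure D5:**
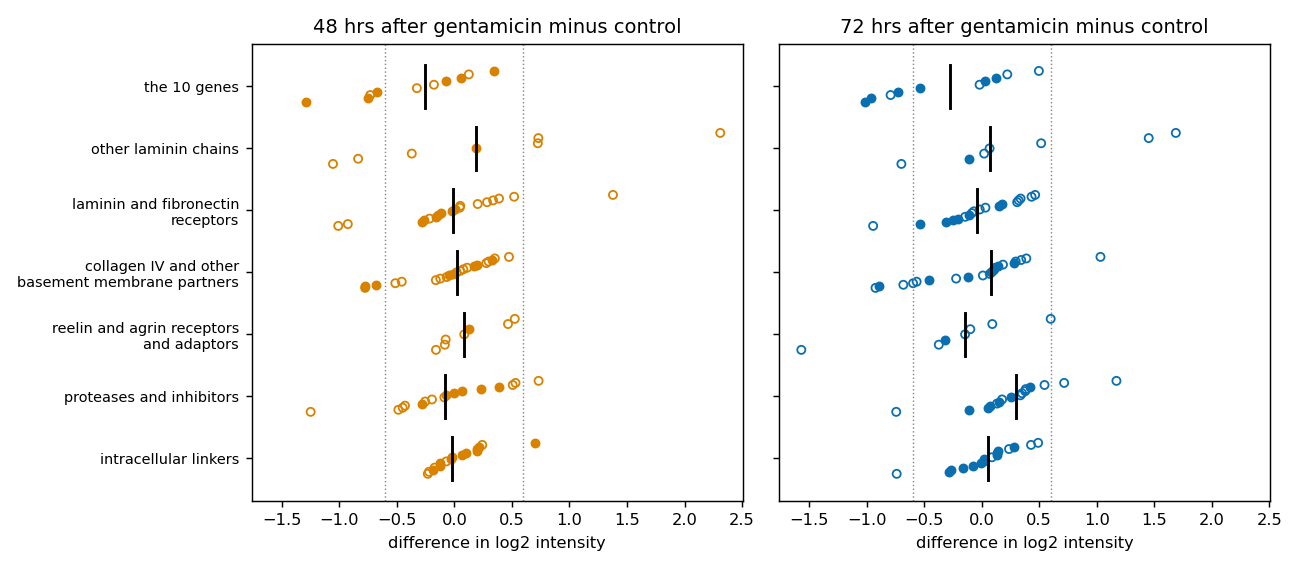
Log2 difference from control at 48 hrs and 72 hrs of the 10 genes and of every measured gene of the related lists (points, brightest probe set of a gene, mean of 2 arrays minus mean of 2 controls; filled, mean log2 intensity over 7; vertical bars, list medians; dotted lines, the fold rule of 0.6). Most genes lie within the rule, as do 18 of the 21 collagen IV and partner genes at 48 hrs, and COL4A1 is below it at both times.

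The genes with the pattern most like FN1, LAMB1 and RELN were ranked by Pearson's r of log2 values over the 6 arrays, among 1675 genes with a mean over 7 and an SD of at least 0.3. The value is a description over 6 points that share their arrays and depth of signal. For FN1 they were C4orf33 (r = 0.92), LHFPL5 (0.91), LOC422929 (0.90), EPM2A (0.885) and ATP6V1C2 (0.85). LHFPL5, which encodes a part of the mechanotransduction channel complex of HCs, read 8.98 and 8.95 in control, 8.26 and 8.67 at 48 hrs, and 8.44 and 8.24 at 72 hrs. Like FN1 and the other genes closest to FN1, it read lower on 48 hr replicate 1 than on 48 hr replicate 2. For LAMB1 they were DUSP19 (0.98), CPQ (0.96), PLBD1 (0.95), NTPCR (0.94) and HSD17B10 (0.94), and for RELN they were SLC25A33 (0.98), GPR160 (0.95), CWH43 (0.94), CDS1 (0.93) and SDR42E2 (0.93). Between the members themselves r was 0.73 for FN1 and LAMB1, 0.74 for LAMB1 and RELN, and 0.59 for FN1 and RELN, so that none of the 3 was among the 5 genes closest to another. In the annotation of the chicken genome 0 of the 10 members lie on the sex chromosomes W or Z.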

How the data were processed

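RNA pooled from the basal part of several chick basilar papillae was hybridised to 6 Affymetrix chicken arrays, with 2 arrays each for control, 48 hrs and 72 hrs. The deposited values are linear signal intensities, 1 per probe set, which the authors normalised between arrays. The submitters' processing notes name MAS5 and the study's methods name dChip, and which of them made the deposited intensities was not settled. Here log2 was taken without a pseudocount, and 153 control probe sets were left out. No column was without a sample (0).

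A gene's value was its brightest probe set by mean log2 over the 6 arrays. Of the 38535 probe sets, 27178 had 1 gene symbol in the platform table, 177 had several and 11180 had none. The study's fold rule (a mean log2 difference over 0.6 or under -0.6) was counted. Limma 3.58.1 (R 4.3.3; trended eBayes; Benjamini-Hochberg at 0.05) was fitted on all 6 arrays and 38382 probe sets, and was tested on simulated data. All members are named, with related genes that passed the fold rule without overlap of the arrays, and the 5 genes most alike to FN1, LAMB1 and RELN. The members and all lists were chosen with earlier results of these data known. Alternatives were quantile normalisation, equal medians, a floor at 32, a filter on low values, the mean of a gene's probe sets, eBayes without a trend, a replicate block and leaving out each array. The number of arrays limits the precision.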

Additional observations from a re-analysis of the deposited data

Results flagged for a closer look

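The third AGRN probe set moved one way at 48 hrs and the other way at 72 hrs. It read 3.78 and 3.77 in control, 3.32 and 3.63 at 48 hrs, and 4.12 and 4.44 at 72 hrs, which gave log2 differences from control of -0.30 and 0.50. Every 48 hr array was below and every 72 hr array above both controls, and all 6 readings were under the intensity of 32. The difference between the 2 effects from control is the same quantity as the step from 48 hrs to 72 hrs. Limma put this step at 0.80 (95% interval -0.20 to 1.80, adjusted p = 1.0). The probe set was flagged for this opposite order, so the step is a description and nothing is read from its interval or p.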

How the results depend on the processing

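FN1, LAMB1 and RELN were past the fold rule at both times under 6 of the 7 alternatives that move their values at a given time, the exception being the mean over all probe sets of a gene. The floor, the filter, the block and leaving out an array of the other time leave these fold changes as they are. With that mean 1 member was lower at 48 hrs (NID2) and 0 at 72 hrs, and the share of all genes was not counted in this setting. The median difference of the members was then -0.11 at 48 hrs and 0.0874 at 72 hrs, and NID1 at 72 hrs was 0.0687. With the floor at 32, NID2 was at 0 at 48 hrs and the median of the members there was -0.05. NID2 could not be given where probe sets with a mean under the median were left out. When single arrays were left out, the median difference of the members lay between -0.43 and -0.05 at 48 hrs. At 72 hrs it lay between -0.43 and 0.0240. NID1 at 72 hrs lay between -2.09 and 0.50. The highest of the medians at 72 hrs and of these NID1 values came without control replicate 1. FN1, LAMB1 and RELN passed the rule of 0.6 only narrowly when some arrays were left out. Their values nearest to it at 48 hrs were -0.64, -0.64 and -0.63, and that of RELN at 72 hrs was -0.6007.

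Limma calls over all probe sets, 0 at 48 hrs, 34 at 72 hrs and 19 between the times, were 5, 2 and 3 with the floor at 32. Without a trend they were 0 in each comparison. When single arrays were left out, where the lone array of a group is assumed to vary like the others, they were 0 at 48 hrs, 0 to 10 at 72 hrs and 0 to 5 between the times, and each of the 6 arrays lowered both latter counts. The cause was not tested. No probe set of a member was called under any of these alternatives. With the title number as a replicate block the calls were 0, 50 and 28. Fold changes cannot move under this block, since each group holds 1 array of each number. Deviations of arrays with the same number correlated at 0.44 (control and 48 hrs), 0.29 (control and 72 hrs) and 0.57 (48 hrs and 72 hrs) over 9320 probe sets. The titles give these arrays a shared number alone. In each group, however, replicate 2 had the larger GAPDH gap and the higher median intensity. The part of either in the correlations was not tested. Readings under 32, which hold 17 of the 37 probe sets on all arrays, limit what can be said of NID2 and LAMA1.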
